A study of Mus musculus with 28 samples.

Results

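The AMPA receptor subunits are 4 genes, Gria1, Gria2, Gria3 and Gria4, of the 41549 genes counted. They were taken by name from the deposited count tables, and all 4 were detected in every library and passed the filter on low counts in every comparison. AMPA receptors are the ion channels that carry most fast excitatory transmission between neurons. Each channel is built from 4 subunits, and the subunit encoded by Gria2, once its messenger RNA has been edited, keeps the channel largely closed to calcium. The mix of subunits therefore matters to a neuron as well as their amount. In the cortex, excitatory pyramidal neurons are rich in Gria2, whereas many inhibitory interneurons, in particular fast-spiking ones, make receptors poor in it. miR-124, a microRNA abundant in neurons, has been reported to affect which AMPA subunits neurons make.

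Motor cortex of 7 mice, numbered 17 to 23 in the sample titles, was studied. Every animal received viral vectors for the nuclease Cas9, AAV-Cas9-miR-124-empty into the left hemisphere and, into the right hemisphere, AAV-Cas9-miR-124-g4, so vector and hemisphere coincide and cannot be told apart. The tissue was fixed, and nuclei were sorted by an HA tag into Cas9-HA-tag positive nuclei (HA-positive) and the remainder (HA-negative), which gave 4 groups of 7 libraries: empty HA-negative, empty HA-positive, g4 HA-negative and g4 HA-positive. All 4 groups come from injected tissue, and none was left without a Cas9 vector. The labels do not give strain, age, promoter or the meaning of g4.

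Libraries held 248612 to 902944 counts and 8687 to 13668 detected genes, and 367 to 1275 counts per library fell on the 4 subunits. HA-positive libraries of empty animals 17, 21 and 22 and of g4 animal 18 had under 10000 detected genes. The library labelled as g4 HA-positive nuclei of animal 19 held both Xist (654.5 CPM, counts scaled to a common library size) and Y-linked transcripts (48.73 CPM). For Xist and Y-linked transcripts the scaling was by total counts alone. The other 3 libraries labelled 19 held Xist at 0 and Y-linked transcripts at 134.3 to 155.5 CPM, so this library does not match its number, and whether it mixes nuclei of 2 animals was not tested. Its summed oligodendrocyte (1395 CPM), microglia (318 CPM) and striatal projection neuron markers (548 CPM) were each the highest of its group. Counts of animals that include g4 HA-positive nuclei take it as animal 19 by its label. Without number 19, of 6 animals with g4, Gria1 and Gria4 CPM were higher in HA-positive than in HA-negative nuclei in 6 and the Gria2 share was lower in 6. Between the vectors in HA-positive nuclei, Gria2 CPM was then higher with g4 in 5 of 6 and the Gria3 share lower in 5 of 6. Tests of genes and of shares below that rest on these libraries were recomputed without them. Group ranges, marker sums, list counts and medians, levels per kb and pattern ranks were not recomputed.

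The 3′ untranslated regions (3′ UTRs) of the subunits were searched for matches to the miR-124 seed, because a microRNA usually lowers transcripts that carry such matches. The searched letters were GTGCCTT (a 7mer-m8 match) and TGCCTTA (a 7mer-A1 match) on the transcript strand, and a stretch that holds both was counted once, as an 8mer. By the GENCODE annotation of GRCm38, taking each gene's longest 3′ UTR, Gria2 held 2 matches, Gria3 held 1, Gria4 held 1 and Gria1 held 0. The same counts came from all annotated protein-coding transcripts. The matches are shown 5′ to 3′ on the transcript strand with the seed match in capitals, since they are the places where a change in miR-124 could act directly on a subunit.
Gria2 8mer: gaaccttctgaGTGCCTTAcacaatggttt
Gria2 7mer-m8: cttacacatctGTGCCTTcgtttttcagt
Gria3 8mer: tttttccttcaGTGCCTTAtggaacactct
Gria4 8mer: aaattaattgaGTGCCTTAatcaaactgtg
The Gria2 matches lie at chr3:80688524-80688531 and chr3:80681886-80681892 on the minus strand, starting at bases 187 and 6826 of a 3′ UTR of 7268 bases. The Gria3 match lies at chrX:41676504-41676511 on the plus strand, starting at base 167 of 2264. The Gria4 match lies at chr9:4420125-4420132 on the minus strand, starting at base 20 of 2256. The 3′ UTR of Gria1 is 2598 bases long. Of 21015 genes with an annotated 3′ UTR, with a median length of 961 bases, 19.67% held at least 1 match and 2.689% held an 8mer. A match is a stretch of letters and not a measured site.

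**Figure D1:**
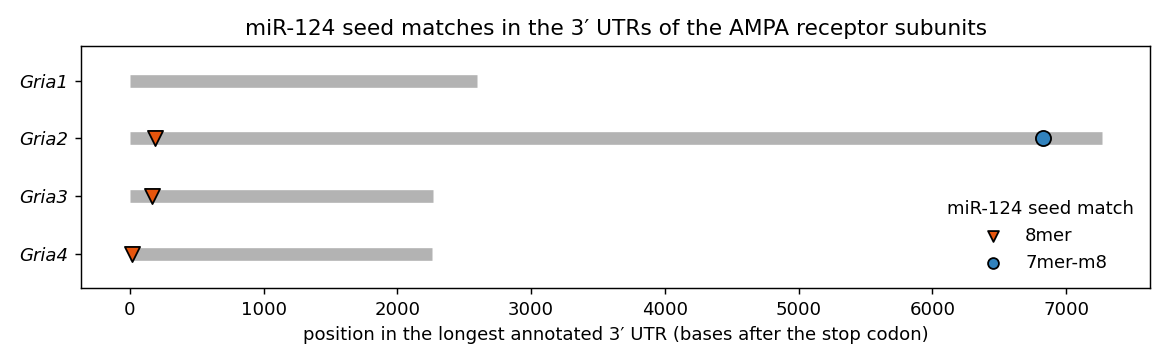
Position of miR-124 seed matches in each subunit's longest annotated 3′ UTR. The x axis gives bases after the stop codon, grey bars the length of the 3′ UTR, triangles 8mer matches and circles 7mer-m8 matches. Gria2, Gria3 and Gria4 each hold an 8mer that starts within their first 187 bases, and Gria1 holds no match.

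The genes themselves are long. Gria1 (ENSMUSG00000020524) spans chr11:57011387-57330244 on the plus strand and Gria2 (ENSMUSG00000033981) spans chr3:80681450-80802835 on the minus strand. Gria3 (ENSMUSG00000001986) spans chrX:41400854-41678601 on the plus strand and Gria4 (ENSMUSG00000025892) spans chr9:4417896-4796234 on the minus strand. The spans measure 318.9, 121.4, 277.7 and 378.3 kb from Gria1 to Gria4. The genes that overlap them are 3 predicted microRNA genes, Gm25749 in Gria2, Gm22413 in Gria3 and Gm23811 in Gria4, each with 0 counts over all libraries.

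Levels are given as CPM scaled with TMM factors, which correct library sizes for composition. For Gria2, the 7 empty HA-negative libraries ranged from 574 to 886 CPM with a median of 759, and the empty HA-positive ones from 460 to 745 with a median of 552. With g4, Gria2 ranged from 684 to 903 CPM (median 782) in HA-negative and from 656 to 881 CPM (median 689) in HA-positive nuclei. The empty HA-positive group had the lowest Gria2, with 4 of its 7 libraries below every empty HA-negative library.

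Gria1, the subunit best known for its insertion into synapses during plasticity, ranged from 196 to 359 CPM (median 228) in empty HA-negative and from 247 to 367 CPM (median 299) in empty HA-positive nuclei. With g4 it ranged from 214 to 282 CPM (median 240) in HA-negative and from 262 to 448 CPM (median 373) in HA-positive nuclei. Of the 7 g4 HA-positive libraries, 6 lay above every g4 HA-negative library, and the library labelled 19 was the lowest of the 7.

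Gria3, an X-linked gene, ranged from 86.3 to 319 CPM (median 212) in empty HA-negative and from 218 to 345 CPM (median 273) in empty HA-positive nuclei. With g4 its range was 217 to 290 CPM (median 239) in HA-negative and 192 to 352 CPM (median 247) in HA-positive nuclei. The groups overlapped in each comparison, and the lowest value belonged to the empty HA-negative library of animal 18.

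Gria4, known for its high expression in fast-spiking interneurons and the cerebellum, ranged from 92.0 to 144 CPM (median 104) in empty HA-negative and from 65.2 to 199 CPM (median 135) in empty HA-positive nuclei. With g4 it ranged from 71.7 to 149 CPM (median 120) in HA-negative and from 140 to 230 CPM (median 183) in HA-positive nuclei. Of the g4 HA-positive libraries, 6 of 7 lay above every g4 HA-negative one. The empty HA-positive libraries were more spread (SD 47.6 CPM) than the empty HA-negative ones (SD 18.2 CPM).

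The sum of the 4 subunits was 1318 ± 183 CPM (SD, n = 7) in empty HA-negative, 1297 ± 137 CPM in empty HA-positive, 1390 ± 137 CPM in g4 HA-negative and 1546 ± 139 CPM in g4 HA-positive nuclei.

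**Figure D2:**
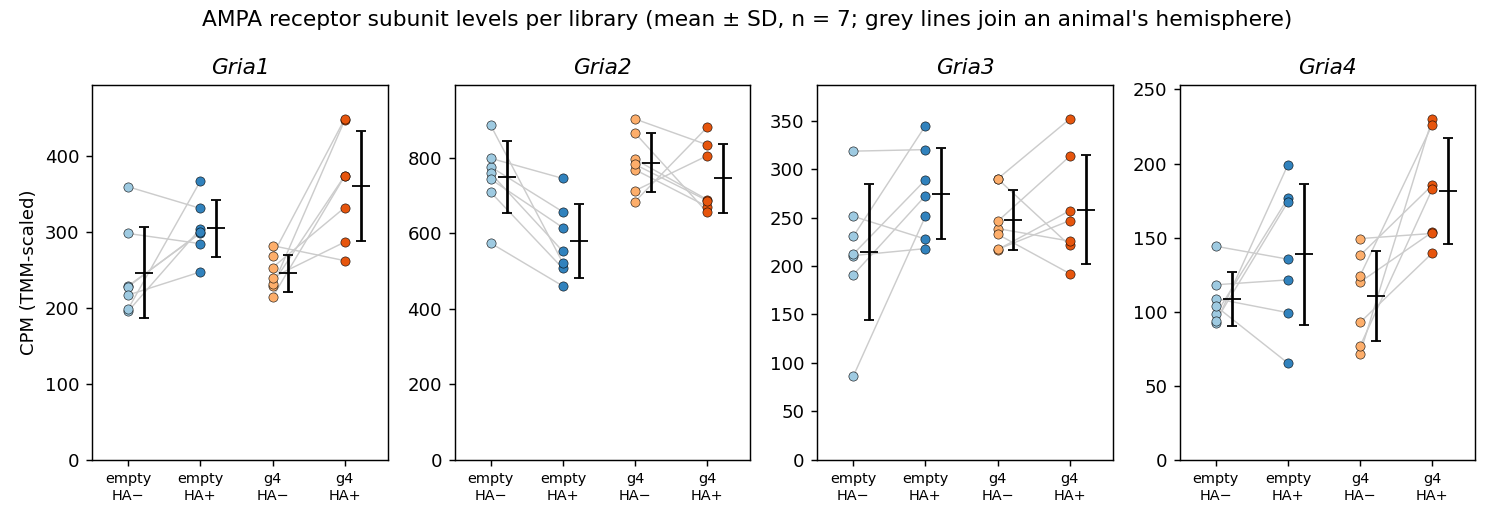
CPM of each subunit in each library (points), with the group mean and SD (bars, n = 7) and grey lines joining the HA-negative and HA-positive libraries of an animal's hemisphere. Gria2 was lower in HA-positive than in HA-negative nuclei in every animal with the empty vector, and Gria4 was higher in every animal with g4.

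Levels were compared between genes only per kb of length, as CPM per kb. Over the union of annotated exons, the order in HA-negative nuclei was Gria2, Gria1, Gria3, Gria4 with both vectors. These were, for the empty vector, 48.2 ± 6.12, 40.8 ± 9.96, 21.8 ± 7.11 and 17.2 ± 2.88 CPM per kb (SD, n = 7). With g4 they were 50.6 ± 4.98, 40.6 ± 3.95, 25.1 ± 3.14 and 17.5 ± 4.80 CPM per kb. The ranges of Gria2 and Gria1 overlapped in both groups, as did those of Gria3 and Gria4, whereas every library of Gria1 lay above every library of Gria3.

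In HA-positive nuclei the order over exons began with Gria1. The empty HA-positive order was Gria1 (50.4 ± 6.17 CPM per kb), Gria2 (37.3 ± 6.34), Gria3 (27.9 ± 4.75) and Gria4 (22.0 ± 7.55). With g4 it was Gria1 (59.6 ± 12.0), Gria2 (48.0 ± 5.87), Gria4 (28.8 ± 5.69) and Gria3 (26.2 ± 5.66). Neighbours in these orders overlapped, except Gria2 and Gria4 with g4. The order depends on the length chosen: per kb of the longest transcript or of the whole gene, Gria2 came first and Gria4 last in all 4 groups. Nuclear RNA holds introns, and whether reads were counted over exons or whole genes is not stated.

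The first question of the design is whether g4 altered the subunits in the nuclei that carried Cas9. No subunit passed the test in HA-positive nuclei, where 0.0599% of 5011 tested genes were called (3 genes; edgeR quasi-likelihood test, Benjamini-Hochberg adjusted p under 0.05). Gria2 was 0.36 ± 0.13 (SE) higher with g4 on the log2 scale, with a 95% confidence interval of 0.10 to 0.62, and was higher in 6 of 7 animals. Its p of 0.00918 became an adjusted p of 0.671 over all genes tested by edgeR. Gria4 was 0.40 ± 0.21 higher (5 of 7 animals, edgeR adjusted p = 0.751) and Gria1 0.24 ± 0.15 higher (5 of 7 animals, adjusted p = 0.766). Gria3 differed by -0.10 ± 0.16 (higher in 2 of 7 animals, adjusted p = 0.955). The median difference of all tested genes was -0.01. Of the 3 subunits with an 8mer match, Gria2 and Gria4 had positive differences and Gria3 a negative one, and Gria1, with no match, lay between them.

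In HA-negative nuclei, 0% of 6262 genes were called by edgeR (0 genes, 236 with an unadjusted p under 0.05, 1 called by DESeq2). The g4 minus empty differences were 0.21 ± 0.17 for Gria3, 0.07 ± 0.10 for Gria2, 0.02 ± 0.18 for Gria4 and -0.01 ± 0.13 for Gria1, each with an edgeR adjusted p of 0.999. All 4 confidence intervals included 0.

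The difference between these effects, tested with all 28 libraries in 1 model, called 0% of 7197 genes (0 genes by edgeR and 0 by DESeq2, 359 with an unadjusted p under 0.05). It was 0.30 ± 0.16 for Gria2 (edgeR adjusted p = 0.979), 0.40 ± 0.28 for Gria4, 0.26 ± 0.20 for Gria1 and -0.30 ± 0.24 for Gria3 (adjusted p = 0.996). The Gria3 contrast was negative in 6 of 7 animals.

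**Figure D3:**
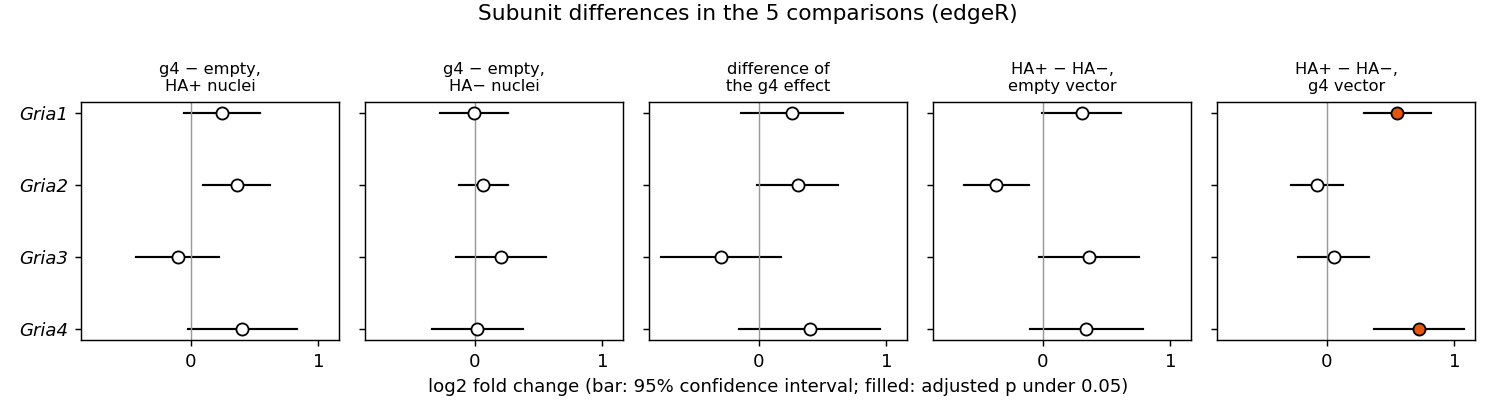
Log2 fold change of each subunit in the 5 comparisons (points) with 95% confidence intervals (bars) from edgeR. Filled points have an adjusted p under 0.05. Gria1 (0.55) and Gria4 (0.72) in HA-positive against HA-negative nuclei with g4 are the filled points.

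The second question is how nuclei that carried Cas9 differed from the remainder of the same hemisphere. With g4, 2 of the 4 subunits rose in HA-positive nuclei, where 6.4% of 6264 genes were called in either direction and 3.32% as higher. Gria4 rose by 0.72 ± 0.17 on the log2 scale (edgeR adjusted p = 0.00747) and was higher in 7 of 7 animals. Gria1 rose by 0.55 ± 0.13 (edgeR adjusted p = 0.00669) in 6 of 7 animals. Gria2 differed by -0.08 ± 0.10 (edgeR adjusted p = 0.780) and Gria3 by 0.05 ± 0.14 (adjusted p = 0.894). Without animal 17 the Gria4 difference was 0.58 and its edgeR adjusted p 0.0646. Leaving out animal 19's g4 HA-positive library gave 0.76 for Gria4 and 0.62 for Gria1 (edgeR adjusted p = 0.00424 and 0.00110).

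With the empty vector none of the 4 subunits passed, where 7.01% of 5538 genes were called. Gria2 was lower by -0.37 ± 0.12 on the log2 scale in HA-positive nuclei, in 7 of 7 animals, with an edgeR adjusted p of 0.0742. It passed with DESeq2 (-0.39, adjusted p = 0.0485), without the HA-positive libraries under 10000 detected genes (-0.42, edgeR adjusted p = 0.0397) and without animal 22 (-0.43, edgeR adjusted p = 0.0366). Gria3 was 0.36 ± 0.19 higher (6 of 7 animals, edgeR adjusted p = 0.303), Gria4 0.34 ± 0.22 higher (4 of 7, adjusted p = 0.425) and Gria1 0.31 ± 0.15 higher (5 of 7, adjusted p = 0.267). That 2 subunits passed with g4 and none with the empty vector is not a difference between the vectors: the test of that difference is the contrast of all 28 libraries above, which called no subunit.

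The make-up of the receptor pool was measured as the share of each subunit in the summed counts of the 4 in a library, which needs no scaling between libraries. Shares of 1 library sum to 100%, so that a lower share of 1 subunit forces a higher share of others. They are shares of counts and not of receptor protein. The 20 share tests (4 subunits, 5 comparisons) were adjusted together. Exact 95% binomial intervals reached 1.53 to 5.12 percentage points to either side of a library's share, and they cover counting error only.

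Gria2 took a smaller share in HA-positive than in HA-negative nuclei with both vectors. With the empty vector its share was 51.4 to 60.5% (median 57.5) in HA-negative and 39.5 to 54.1% (median 42.6) in HA-positive libraries. With g4 it was 52.5 to 59.8% (median 57.3) in HA-negative and 41.8 to 53.2% (median 47.8) in HA-positive libraries. With each vector, 6 of 7 HA-positive libraries lay below every HA-negative library, and the share was lower in 7 of 7 animals. The difference was -12.4 percentage points with the empty vector and -8.37 with g4, each with p = 0.001166 in an exact two-sided permutation test and 0.01165 adjusted over the 20.

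The shares of Gria1 and Gria4 were higher in HA-positive nuclei with g4. For Gria1 it was 17.7 ± 0.839% (SD, n = 7) in HA-negative and 23.3 ± 4.50% in HA-positive nuclei, higher by 5.68 percentage points in 6 of 7 animals (exact permutation p = 0.001748, adjusted 0.01165). For the empty vector the shares were 18.7 ± 3.81% and 23.6 ± 2.83%, a difference of 4.83 percentage points in 6 of 7 animals that missed the threshold after adjustment (exact permutation p = 0.02156, adjusted 0.0616). Gria4 with g4 took 7.88 ± 1.78% in HA-negative and 11.7 ± 1.95% in HA-positive nuclei, higher by 3.85 percentage points in 6 of 7 animals (exact permutation p = 0.005245, adjusted 0.02622). That call was lost without animal 17, 20, 21 or 22, at differences of 3.03 to 3.98 percentage points (exact permutation, adjusted p from 0.05566 to 0.08657). Its share for the empty vector was 8.31 ± 1.47% and 10.8 ± 3.65% (exact permutation p = 0.13, adjusted 0.2889).

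The share of Gria3 stood highest in the empty HA-positive group. It was 8.65 to 22.2% (median 16.1) in empty HA-negative and 18.5 to 23.5% (median 21.3) in empty HA-positive libraries, and 15.8 to 19.1% (median 17.6) in g4 HA-negative and 13.4 to 20.3% (median 16.0) in g4 HA-positive libraries. In HA-positive nuclei, 5 of the 7 g4 libraries lay below every empty library. The g4 minus empty difference there was -4.49 percentage points, lower in 6 of 7 animals (exact permutation p = 0.007576, adjusted 0.0272). Between HA-positive and HA-negative nuclei of the empty vector it was 5.17 percentage points, higher in 7 of 7 animals (exact permutation p = 0.008159, adjusted 0.0272). These comparisons share the empty HA-positive libraries and are not independent of each other. With g4, HA-positive and HA-negative nuclei differed by -1.16 percentage points (exact permutation p = 0.3199, adjusted 0.5289). As a level, Gria3 was at 275 ± 46.8 CPM (SD, n = 7) in empty and 258 ± 55.8 CPM in g4 HA-positive libraries. The sum of the 4 subunits in them was 1297 ± 137 and 1546 ± 139 CPM. The lower Gria3 share with g4 is thus a part of a higher sum and not by itself a lower Gria3 level.

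The difference of the g4 effect on the Gria3 share between HA-positive and HA-negative nuclei was -6.33 percentage points, negative in 6 of 7 animals, and missed the threshold after adjustment (exact sign-flip permutation p = 0.03125, adjusted 0.07812). The Gria3 calls also depended on single animals and on the length used. Per kb of exons the g4 minus empty difference in HA-positive nuclei was -4.13 percentage points (exact permutation, adjusted p = 0.09556). Without the HA-positive libraries under 10000 genes it was -4.28 (exact permutation, adjusted p = 0.1072). The call was also lost when animal 17, 18, 19, 20 or 21 was left out, with differences between -3.80 and -4.92.

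In HA-negative nuclei the shares of g4 and empty libraries differed by -1.10 percentage points for Gria1, -0.32 for Gria2, 1.85 for Gria3 and -0.43 for Gria4, with adjusted exact permutation p-values from 0.5289 to 0.8845. In HA-positive nuclei the g4 minus empty difference was 3.75 percentage points for Gria2 (exact permutation p = 0.1585, adjusted 0.317), 0.98 for Gria4 and -0.24 for Gria1. With animals as pairs, an exact sign-flip test over 7 animals cannot give a p under 0.0156, and no share passed after adjustment over 20 tests. The pairs whose 7 animals all moved 1 way, the Gria2 share with each vector and the Gria3 share with the empty vector, had that smallest p and an adjusted p of 0.07812.

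**Figure D4:**
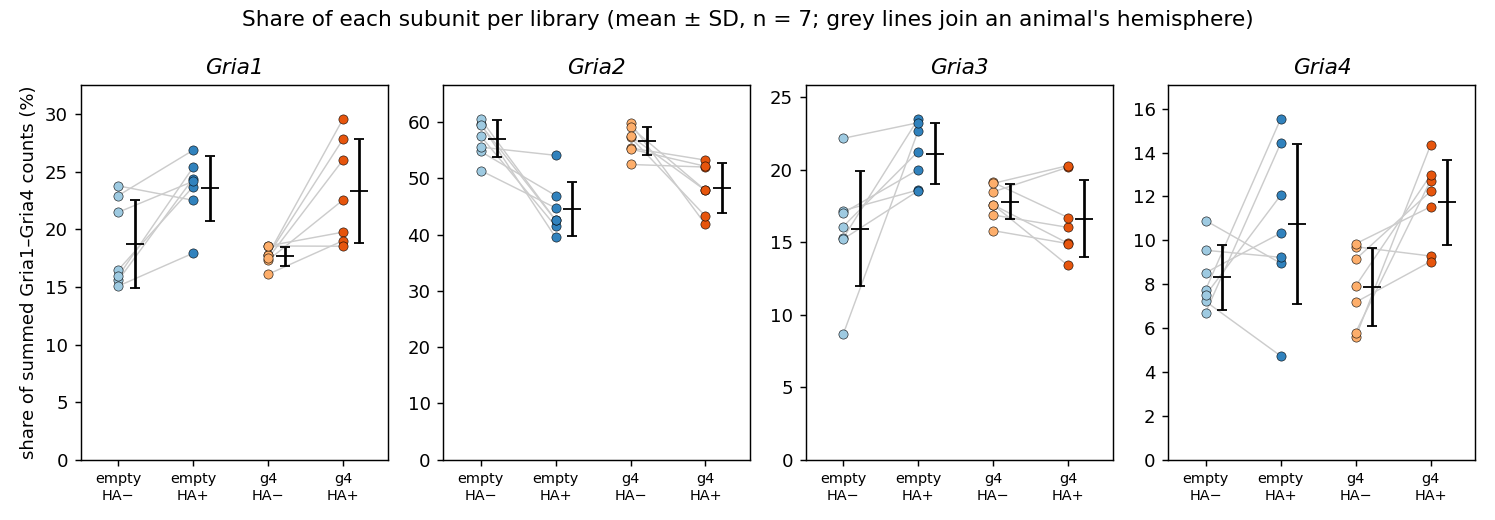
Share of each subunit in the summed counts of the 4 subunits in each library (points, in percent), with the group mean and SD (bars, n = 7) and grey lines joining an animal's hemisphere. The Gria2 share falls along every grey line with both vectors, and the Gria3 share is highest in the empty HA-positive group (mean 21.1%).

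HA-positive and HA-negative nuclei also differed in markers of cell types, so the comparisons between them are of unlike mixtures of nuclei. In such mixtures fewer nuclei of a type and less RNA per nucleus cannot be told apart. The 13 inhibitory neuron markers in the table summed to 1195 to 1542 CPM in empty HA-negative and 3461 to 5186 CPM in empty HA-positive libraries, and to 1071 to 1571 CPM in g4 HA-negative and 2376 to 4412 CPM in g4 HA-positive libraries. The groups did not overlap in this sum with either vector. Of 12 that were tested, 10 rose in HA-positive nuclei with each vector, against 7.01% and 6.4% of all genes called, although a gene can pass the filter on low counts through the higher group alone.

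Excitatory neuron markers summed to 1611 to 2290 CPM in empty HA-negative and 937 to 1706 CPM in empty HA-positive libraries, and to 1492 to 2182 CPM in g4 HA-negative and 1358 to 1948 CPM in g4 HA-positive libraries. Of those tested, 2 of 11 fell with the empty vector and 2 of 12 with g4. Over all tested genes, 3.5% and 3.08% were called as lower. Called or not, 1 tested marker was higher and 10 lower in HA-positive nuclei with the empty vector. With g4, 3 were higher and 9 lower. Nothing is read from so few calls about the list. Markers of several other types were low in HA-positive nuclei, and for these only sums over the whole list are given, since a member near 0 in HA-positive nuclei can pass the filter only through the HA-negative group. Oligodendrocyte markers summed to 1114 to 2544 CPM over the HA-negative libraries, 40.9 to 107 CPM in empty HA-positive and 97.7 to 1395 CPM in g4 HA-positive ones. Microglia markers summed to 242 to 590 CPM over the HA-negative libraries, 6.99 to 44.5 CPM in empty HA-positive and 2.74 to 318 CPM in g4 HA-positive ones. Striatal projection neuron markers summed to 259 to 2203 CPM over the HA-negative libraries, 88.3 to 221 CPM in empty HA-positive and 121 to 548 CPM in g4 HA-positive ones. Oligodendrocyte precursor markers summed to 186 to 434 CPM over the HA-negative libraries, 37.0 to 160 CPM in empty HA-positive and 63.6 to 213 CPM in g4 HA-positive ones. Astrocyte markers differed from these types, as their sums overlapped between HA-positive and HA-negative libraries with each vector. With the empty vector they were 1194 to 1547 CPM (median 1360) in HA-negative and 667 to 1361 CPM (median 758) in HA-positive libraries. With g4 they were 1161 to 1645 CPM (median 1371) and 915 to 2289 CPM (median 1363). In the empty HA-positive group C1qa, Cx3cr1, P2ry12 and Adora2a were at 0 in every library. The part of these mixtures in the subunit differences was not tested.

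Between the vectors in HA-positive nuclei, no marker passed. Of 10 tested excitatory markers 8 were higher with g4 (median 0.33), and of 13 inhibitory markers 10 were lower (median -0.24). Of 5 tested astrocyte markers 4 were higher with g4 (median 0.61), and both tested oligodendrocyte markers were higher (median 1.84). The median of all tested genes was -0.01. Summed astrocyte markers were 667 to 1361 CPM in empty and 915 to 2289 CPM in g4 HA-positive libraries, which overlapped, as did the sums of the other lists given above. The part of this in the Gria2, Gria3 and Gria4 values was not tested.

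The genes that work with AMPA receptors were read from lists of auxiliary subunits, assembly factors, trafficking and scaffold proteins, and the RNA editing enzyme family. With the empty vector, 2 of 11 tested auxiliary subunits changed in HA-positive nuclei, 1 in each direction, against 7.01% of all tested genes. Cacng2, which encodes stargazin, the founding AMPA auxiliary subunit, rose from 56.6 ± 13.9 to 131 ± 34.1 CPM (SD, n = 7), a log2 difference of 1.19 ± 0.23 in 7 of 7 animals (edgeR adjusted p = 0.000708). Shisa7, an auxiliary protein now best known for its role at GABA-A receptors, fell from 133 ± 17.1 to 77.3 ± 25.9 CPM, a log2 difference of -0.76 ± 0.22 in 7 of 7 animals (edgeR adjusted p = 0.0287). The list's median was -0.41, against 0.01 for all tested genes. The Shisa7 call was lost without animal 17, 19, 20, 21 or 23, with edgeR adjusted p-values up to 0.0932.

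With g4, 1 of 10 tested auxiliary subunits rose in HA-positive nuclei, against 6.4% of all tested genes called in either direction, and 1 gene of 10 is near that share. Cacng2 was at 53.3 ± 24.4 CPM in HA-negative and 106 ± 47.7 CPM in HA-positive nuclei, a log2 difference of 1.00 ± 0.28 in 6 of 7 animals (edgeR adjusted p = 0.0270). That call was lost without animal 17, 18 or 21 (edgeR adjusted p up to 0.135) and without the HA-positive library under 10000 detected genes (0.0532). The list's median was -0.11.

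Of the assembly factors, 1 of 6 tested rose with the empty vector and 0 of 7 with g4, against 7.01% and 6.4% of all tested genes. Counts this small are near those shares, and the Sacm1l difference between the vectors' contrasts did not pass (-0.49 ± 0.28, edgeR adjusted p = 0.996). Sacm1l, a phosphoinositide phosphatase found in AMPA receptor assembly complexes, rose from 62.4 ± 10.2 to 118 ± 15.0 CPM (log2 difference 0.93 ± 0.21, 7 of 7 animals, edgeR adjusted p = 0.00399). With g4 its difference was 0.42 ± 0.20 (edgeR adjusted p = 0.265). The list's medians were 0.33 and 0.12.

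Trafficking and scaffold genes had 2 rises and 1 fall among 22 tested with the empty vector and 0 calls among 23 with g4, against 7.01% and 6.4% of all tested genes. The calls are given as single genes, and nothing is read from the counts about the list. Kif5c, a kinesin motor that carries receptors along dendrites, rose from 566 ± 46.9 to 855 ± 119 CPM (log2 difference 0.60 ± 0.11, 7 of 7 animals, edgeR adjusted p = 0.000606). Nsf, an ATPase that binds the Gria2 subunit and helps to hold it at the surface, rose from 481 ± 51.6 to 721 ± 118 CPM (log2 difference 0.59 ± 0.12, 7 of 7 animals, edgeR adjusted p = 0.00200). Nptx1, a secreted pentraxin that clusters AMPA receptors, fell from 179 ± 45.8 to 82.0 ± 45.8 CPM (log2 difference -1.12 ± 0.28, 7 of 7 animals, edgeR adjusted p = 0.0102). The Nptx1 call was lost without animal 19 (edgeR adjusted p = 0.0596) and without the HA-positive libraries under 10000 genes (0.0557). With g4 the differences were 0.30 ± 0.10 for Kif5c, 0.03 ± 0.12 for Nsf and -0.39 ± 0.18 for Nptx1. The list's medians were -0.13 and -0.10.

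Of the 3 genes of the RNA editing enzyme family, of which Adarb2 is also on the list of inhibitory neuron markers, 1 rose with each vector. Over all tested genes, 7.01% were called with the empty vector and 6.4% with g4, and nothing is read from so short a list. The enzyme that rose was Adarb1, which encodes ADAR2, the enzyme that edits the Gria2 transcript at the site that sets calcium entry. With g4, Adarb1 rose from 62.2 ± 16.3 to 149 ± 33.2 CPM (log2 difference 1.27 ± 0.20, 7 of 7 animals, edgeR adjusted p = 4.58e-05). In the hemispheres with the empty vector it rose from 93.4 ± 29.6 to 151 ± 32.6 CPM (log2 difference 0.69 ± 0.21, 6 of 7 animals, edgeR adjusted p = 0.0468). The call with the empty vector was lost with animals as a block (edgeR adjusted p = 0.0858), with other scaling factors, with no filter, with DESeq2, without the libraries under 10000 genes and when any animal other than 18 was left out (edgeR adjusted p up to 0.195). Editing itself cannot be read from gene counts.

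**Figure D5:**
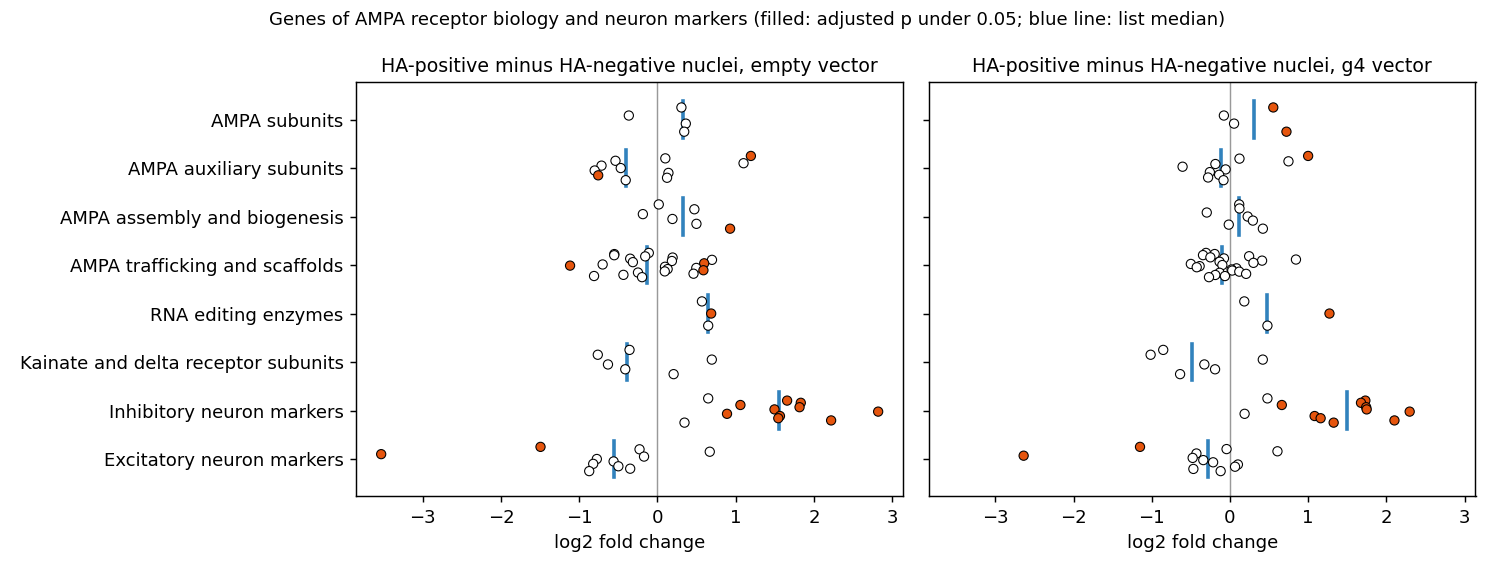
Log2 fold change between HA-positive and HA-negative nuclei for each tested gene of the lists (points), with the empty vector (left) and g4 (right). Filled points have an edgeR adjusted p under 0.05 and blue lines mark list medians. Inhibitory neuron markers lie to the right, and the filled AMPA subunits are Gria1 and Gria4 with g4.

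Between the vectors none of these genes passed. In HA-positive nuclei the smallest p-values belonged to Frrs1l, an assembly factor of AMPA receptors, which was at 297 ± 56.8 CPM with the empty vector and 425 ± 51.7 CPM with g4 (log2 difference 0.51 ± 0.14, higher in 7 of 7 animals, edgeR adjusted p = 0.344), and to Kif5c (-0.37 ± 0.12, adjusted p = 0.570) and Nsf (-0.37 ± 0.14, adjusted p = 0.703). In HA-negative nuclei they belonged to Adarb1 (-0.61 ± 0.21, lower in 7 of 7 animals), the scaffold gene Dlg3 (0.46 ± 0.18) and Nsf (0.19 ± 0.10), each with an edgeR adjusted p of 0.999. In the difference of the g4 effect they belonged to Nsf (-0.54 ± 0.17, edgeR adjusted p = 0.797), Frrs1l (0.43 ± 0.19, adjusted p = 0.930) and the scaffold gene Dlg2 (0.42 ± 0.19, adjusted p = 0.971).

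Genes with the most similar pattern over the 28 libraries were ranked by the root mean square difference of centred log2 CPM among 7196 other genes. Closest to Gria1 were Ntrk2 (0.221), Myo5a (0.237) and Ociad1 (0.256), against a median of 0.719 over all genes. Closest to Gria2 were Rtn4 (0.214), Pcdh10 (0.216) and Cntn1 (0.223), against a median of 0.683. Closest to Gria3 were Bcap29 (0.298), Cadm2 (0.299) and Canx (0.312), against 0.743. Closest to Gria4 were another subunit, Gria1 (0.298), and then Uhmk1 (0.329) and Slc24a2 (0.334), against 0.787. Genes share the depth and the cell mixture of each library, and well-counted genes have smaller differences by this measure.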

How the data were processed

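Per the labels' protocols, 40 to 2000 pg of RNA from sorted nuclei were used per library (QIAseq FastSelect kit). The values the authors deposited are raw counts of reads per gene, as the labels name them, and every value is whole. GRCm38 is the build in the submitters' processing notes, and no source used here names the aligner, the counter, the strand setting or molecular identifiers. Empty cells were read as 0, since no cell holds a 0. A single entry of 41550 had no gene name, held 0% of counts in each library and was dropped. Columns were tied to samples by the descriptions, since for 3 animals the title number is 1 lower than the column's.

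Genes were tested with edgeR 4.0.16 in R 4.3.3 (filterByExpr, TMM, robust quasi-likelihood fit, two-sided, Benjamini-Hochberg over all tested genes, called under 0.05) on the groups compared, with animals unpaired. DESeq2 1.42.0, other factors, no filter, the animal as a block and left-out libraries were alternatives. The test script was checked on simulated data. Shares were compared with exact permutation tests over 3432 arrangements of 14 libraries, or 128 sign patterns of 7 animals. The titles give libraries of 1 animal the same number, which pairs them. The g4 HA-positive library labelled 19 does not match the other 3 of its number in Xist and Y-linked transcripts, so that pair is doubtful. Deviations of same-numbered libraries from group means correlated weakly over genes (medians 0.0112 to 0.0611 in 4 comparisons). For libraries of other animals the medians were -0.0086 to 0.00707. Counting error of poorly counted genes lowers such correlations, so they do not decide whether pairing matters. CPM used TMM factors over all 28 libraries, except for Xist and Y-linked transcripts, which were scaled by total counts alone. Likeness used log2 CPM with a prior count of 2. Animals are the replicates, 7 in each group. The main edgeR tests and the permutations of 14 libraries set a difference against the spread between libraries within groups. They do not use the pairing by animal, and in the paired test no share passed after adjustment. The members, lists and tests were chosen with earlier results of these data known. Named beside the 4 subunits were list genes that were called, the 3 with the smallest p where none was, and the 3 genes closest in pattern to each subunit.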

Additional observations from a re-analysis of the deposited data

How the results depend on the processing

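Of 248 recomputed log2 differences of the subunits, 235 kept their direction and their side of the threshold, as did 187 of 224 share differences; the cause of the changes below was not tested unless given. For g4 minus empty in HA-negative nuclei the log2 difference of Gria1 became 0.0087 without the filter and 0.013 with the animal as a replicate block, and that of Gria4 became -0.0097 with the block. The Gria2 difference between HA-positive and HA-negative nuclei with the empty vector passed with DESeq2 (-0.39) and without libraries under 10000 genes (-0.42). Leaving out 1 animal at a time gave -0.062 to 0.081 for Gria1 and -0.093 to 0.12 for Gria4 in HA-negative nuclei, -0.43 to -0.30 for Gria2 between nuclei with the empty vector, and -0.0044 to 0.12 for Gria3 and 0.58 to 0.85 for Gria4 between nuclei with g4. The block changed no other subunit call of edgeR.

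Paired by animal (replicate block), the share differences are the same by construction, and no share passed (exact sign-flip test, lowest adjusted p = 0.07812). Between nuclei, calls ended at -12.4 (Gria2) and 5.17 (Gria3) percentage points with the empty vector and -8.37 (Gria2) with g4. Each of these had the smallest possible sign-flip p of 0.0156. With 1 animal going the other way, calls ended at -4.49 (Gria3, g4 minus empty, HA-positive). The same held for 5.68 (Gria1) and 3.85 (Gria4) percentage points between nuclei with g4 (exact sign-flip p = 0.03125 for each of the 3). Per kb of exons, calls were lost at -4.13 (Gria3, g4 minus empty, HA-positive), 3.49 (Gria3 between nuclei, empty vector) and 6.16 (Gria1 between nuclei, g4), and Gria2, g4 minus empty in HA-negative nuclei, became 0.034. Without libraries under 10000 genes, Gria3 calls were lost at -4.28 and 5.25, and the differences of the g4 effect became -1.36 for Gria1 and -1.76 for Gria4. Leaving out animal 19's g4 HA-positive library turned the Gria1 difference between vectors to 0.352.

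With 1 animal left out, which leaves fewer arrangements to permute, the g4 minus empty shares in HA-positive nuclei ranged from -1.46 to 0.857 (Gria1), -5.28 to -3.80 (Gria3) and -0.228 to 1.65 (Gria4), and in HA-negative nuclei from -1.36 to 0.969 (Gria2). The difference of the g4 effect on Gria1 ranged from -1.18 to 2.58. Between nuclei the ranges were 4.05 to 5.84 (Gria1) and 3.70 to 5.86 (Gria3) with the empty vector and 3.03 to 4.56 (Gria4) with g4; calls were lost without animals 17, 18, 20, 21 or 23 for Gria3 and 17, 20, 21 or 22 for Gria4, and Gria1 with the empty vector passed without animal 22.

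Genes called, g4 against empty in HA-positive nuclei, numbered 1 with the animal as replicate block, 5 with DESeq2, 28 without the filter, 5 without animal 19's g4 library, 0 without libraries under 10000 genes and 1 to 4 with 1 animal left out. DESeq2 called 1 in HA-negative nuclei, and the difference of the g4 effect had 3 without the filter. Between nuclei with the empty vector, DESeq2 called 664, no filter 661 and leaving out 1 animal 251 to 371; with g4 the last gave 218 to 422. Depth limited the Gria4 share of a library to within 1.53 to 3.83 percentage points. A level per kb depends on the length by construction, and 24 values recomputed with another length moved.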

Other observations

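Kainate and delta receptor subunits, the other ionotropic glutamate receptor relatives outside the NMDA family, did not pass the test between HA-positive and HA-negative nuclei: 0 of 6 tested genes were called by edgeR with either vector, against 7.01% and 6.4% of all tested genes, so that 0 of 6 is near the share over all genes. Their medians were -0.38 with the empty vector and -0.48 with g4, against 0.01 and 0.006 for all tested genes. Grik2, a kainate receptor subunit, was at 141 ± 28.0 CPM (SD, n = 7) in empty HA-negative and 90.3 ± 31.0 CPM in empty HA-positive nuclei, a log2 difference of -0.63 ± 0.22 in 7 of 7 animals (edgeR adjusted p = 0.0796). With g4 it was -0.33 ± 0.19 (adjusted p = 0.393). Between the vectors in HA-positive nuclei, the kainate and delta list had 2 genes higher and 4 lower with g4 (median -0.26), with 0 of 6 called by edgeR. The summed level of the list was 361 to 469 CPM in empty HA-negative, 150 to 399 CPM in empty HA-positive, 360 to 528 CPM in g4 HA-negative and 200 to 392 CPM in g4 HA-positive libraries. No library's value for a subunit stood apart from its group by Dixon's test in the 32 sets of 7 libraries looked at.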
